A study of Mus musculus with 11 samples.

Results

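Bile acid synthesis in the mouse liver was followed through 9 genes: the synthesis enzymes Cyp7a1, Cyp8b1, Cyp27a1, Cyp7b1 and Cyp2c70, the conjugating enzymes Slc27a5 and Baat, and the regulators Nr1h4 and Nr0b2, which encode the receptors FXR and SHP. The genes were chosen by name for their role in this pathway. Each was read from a probe set annotated to its symbol alone, and all 9 were measured among 19938 genes. Each of the 9 had 1 such probe set, so no choice between probe sets was needed. The study took RNA from liver of male mice at 14 months of age and hybridised it to Affymetrix arrays. Wild-type C57BL/6 liver was represented by 3 arrays. Tumor-free liver tissue came from Mdr2-KO mice on 4 arrays and from Mdr2-KO/IL6-KO mice, which lack both Mdr2 and interleukin 6, on another 4. All 8 knockout arrays share the loss of Mdr2. The labels name the strain for the wild-type mice alone, and they name no clone, Cre line, pooling or time of day of collection. Titles carry the prefix W in wild type and BIL in both knockout groups, and whatever the prefixes stand for cannot be told apart from genotype.

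Hepatocytes make bile acids from cholesterol by a classical pathway, which starts with Cyp7a1, and an alternative pathway, which starts with Cyp27a1. Bile acids bind FXR, FXR raises SHP, and SHP in turn represses Cyp7a1 and Cyp8b1, so that the product limits its own synthesis. Mdr2, the product of Abcb4, moves phosphatidylcholine into bile, and without it free bile acids injure the bile ducts. Inflammatory cytokines also lower Cyp7a1 in cultured liver cells. The comparisons ask how far this pathway differs in livers that have lived without Mdr2, and what loss of interleukin 6 adds.

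Levels are log2 values, so that 1 unit is a doubling, and a group level is given with its SD over the arrays. The array medians lay between 5.09 and 5.23, and Pearson r over all probe sets between any pair of arrays was 0.976 to 0.990. Abcb4 checked the Mdr2 label: it read 9.74 to 9.95 on the wild-type arrays and 7.54 to 8.32 on all 8 knockout arrays. Alb, the most familiar hepatocyte marker and named for that reason, averaged 13.36, 13.32 and 13.28 in wild-type, Mdr2-KO and Mdr2-KO/IL6-KO livers, with all Mdr2-KO/IL6-KO arrays below wild type (adjusted p = 0.726). Cps1, the urea cycle enzyme with the lowest p of the hepatocyte markers against wild type, had log2 changes of 0.20 and 0.22, with all 8 knockout arrays above wild type (adjusted p = 0.464 and 0.235). Between the knockout groups the lowest p was that of Apoa1, with a log2 change of -0.14 (adjusted p = 0.9995). The 12 measured hepatocyte markers averaged 12.03 to 12.11 on wild-type arrays, 11.84 to 12.14 on Mdr2-KO arrays and 11.91 to 12.18 on Mdr2-KO/IL6-KO arrays, so the groups overlapped. In bulk liver fewer cells of a type and less RNA per cell cannot be told apart. Mdr2-KO replicates 2 and 3 lay farthest apart on the second principal component, at 25.8 and -21.0, with the other 9 arrays between them, and values without both are given where a change moved by over 1.5 times. The number of arrays limits the precision. Whether every array stands for a separate mouse is not stated, so a p-value here covers the spread between samples, which may be technical.

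Of these 9 genes the bile acid receptor gene Nr1h4 was the 1 that passed the test in any comparison, lower in Mdr2-KO/IL6-KO than in wild-type liver. In Mdr2-KO against wild type none of the 9 genes was called by limma at an adjusted p under 0.05, beside 1.26% of all genes tested, and 1 of the 9 reached an unadjusted p under 0.05 against 9.79% of all genes. In Mdr2-KO/IL6-KO against wild type Nr1h4 was called lower and the other 8 genes were not, beside 4.19% of all genes called, and 4 of the 9 reached an unadjusted p under 0.05 against 15.5% of all genes. Genes called lower were 1.28% of all genes there. Between the knockout groups none of the 9 was called, beside 0.00502% of all genes, which is 1 gene, Fgl1, named because it is the only one. There 2 of the 9 reached an unadjusted p under 0.05 against 4.82% of all genes. The median change of the 9 genes was -0.13 in Mdr2-KO against wild type, -0.19 in Mdr2-KO/IL6-KO against wild type and -0.16 between the knockout groups. The same medians over all genes were -0.0056, -0.00056 and 0.0099. Both comparisons with wild type share the 3 wild-type arrays.

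**Figure D1:**
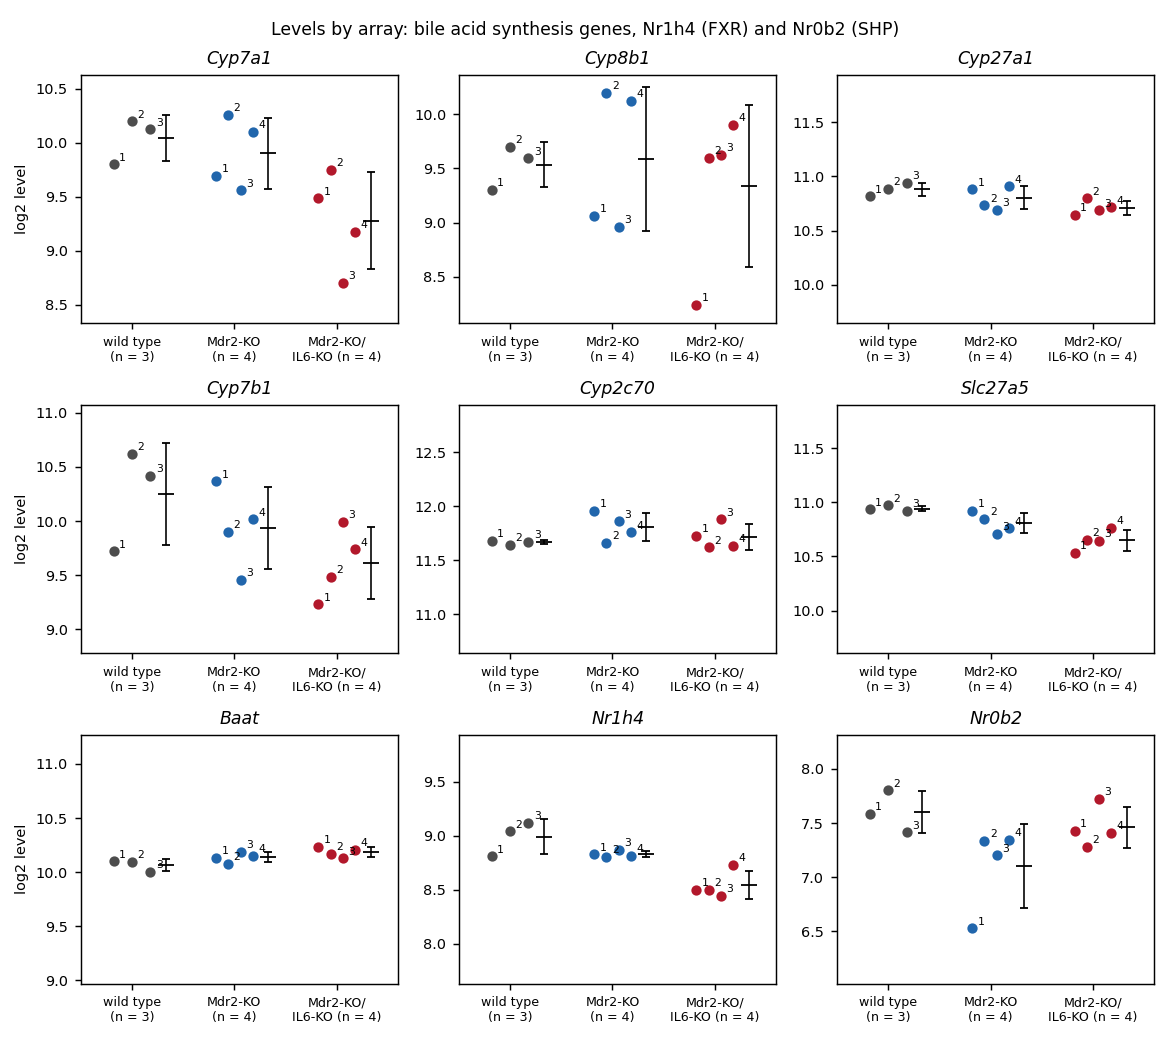
Log2 level (vertical axis, with the same span in every panel) of the 9 genes on each array, by genotype group; numbers beside points are replicates, and the bar with whiskers is the group mean ± SD. Nr1h4 sits lowest in Mdr2-KO/IL6-KO, at 8.44 to 8.73, while Cyp8b1 spreads from 8.24 to 10.20 over the arrays and Baat only from 10.005 to 10.23.

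Nr1h4 encodes FXR, the nuclear receptor that senses bile acids. Its level was 8.81, 9.04 and 9.12 on the wild-type arrays, 8.83, 8.80, 8.87 and 8.82 on the Mdr2-KO arrays, and 8.50, 8.50, 8.44 and 8.73 on the Mdr2-KO/IL6-KO arrays. All 4 Mdr2-KO/IL6-KO arrays lay below every array of the other groups, and replicate 4 was the highest of them. The group means were 8.99 ± 0.161 (SD, n = 3), 8.83 ± 0.0283 (SD, n = 4) and 8.54 ± 0.127 (SD, n = 4). Nr1h4 fell 1.36-fold in Mdr2-KO/IL6-KO against wild type (log2 change -0.45 ± 0.097 SE, limma adjusted p = 0.0189). In Mdr2-KO against wild type its log2 change was -0.16 ± 0.097 SE (adjusted p = 0.670), and -0.25 and -0.096 without wild-type replicate 1 or 3. The difference between the knockout groups was -0.29 ± 0.090 SE on the log2 scale, with a 95% interval of -0.48 to -0.092, and did not pass (unadjusted p = 0.00697, adjusted p = 0.911). The 4 arrays of each knockout group did not overlap there, which was so for 2.51% of all genes in either direction and 0.908% in the lower direction. The call against wild type was lost without wild-type replicate 2 (adjusted p = 0.0773) or 3 (0.101) and without Mdr2-KO/IL6-KO replicate 1 (0.0558), 2 (0.0555) or 3 (0.0589). Over all 20 alternatives its adjusted p lay between 0.00588 and 0.101.

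Nr0b2 encodes SHP, the repressor that FXR induces. Its level was 7.59, 7.80 and 7.41 on the wild-type arrays, 6.53, 7.34, 7.20 and 7.34 on the Mdr2-KO arrays, and 7.43, 7.28, 7.73 and 7.41 on the Mdr2-KO/IL6-KO arrays. All 4 Mdr2-KO arrays lay below the 3 wild-type arrays, with replicate 1 far below the rest, whereas the Mdr2-KO/IL6-KO arrays overlapped both other groups. Arrays apart between Mdr2-KO and wild type were seen for 9.13% of all genes, and in the lower direction for 3.64%, and Nr0b2 was the 1 gene of the 9. The log2 change was -0.50 ± 0.18 SE in Mdr2-KO against wild type and did not pass (adjusted p = 0.318); without Mdr2-KO replicate 1 it was -0.31 (adjusted p = 0.476), and without replicates 2 and 3 it was -0.67 (adjusted p = 0.253). It was -0.14 ± 0.18 SE in Mdr2-KO/IL6-KO against wild type (adjusted p = 0.817), and ranged from -0.23 to -0.039 when 1 array was left out. Between the knockout groups it was 0.36 ± 0.17 SE, with a 95% interval of -0.0037 to 0.72 (adjusted p = 0.9995). Without Mdr2-KO replicate 1 that change was 0.17. By group mean the receptor was lowest in Mdr2-KO/IL6-KO livers and the repressor lowest in Mdr2-KO livers.

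The stretches just before the transcription start of these regulators are shown because the receptor and the repressor had their lowest means in different genotypes. RefSeq windows of assembly GRCm38.p6 were found for 5 of the 9 genes, and the 250 bases before the start are given 5′ to 3′ on the strand of the gene, with motif matches in capitals. The Nr1h4 window lies at chr10:89506659-89506908 on the minus strand and the Nr0b2 window at chr4:133553126-133553375 on the plus strand.
Nr1h4: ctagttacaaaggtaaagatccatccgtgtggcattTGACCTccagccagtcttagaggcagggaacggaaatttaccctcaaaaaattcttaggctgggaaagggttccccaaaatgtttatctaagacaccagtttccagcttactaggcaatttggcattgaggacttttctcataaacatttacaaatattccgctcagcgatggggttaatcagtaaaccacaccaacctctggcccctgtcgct
Nr0b2: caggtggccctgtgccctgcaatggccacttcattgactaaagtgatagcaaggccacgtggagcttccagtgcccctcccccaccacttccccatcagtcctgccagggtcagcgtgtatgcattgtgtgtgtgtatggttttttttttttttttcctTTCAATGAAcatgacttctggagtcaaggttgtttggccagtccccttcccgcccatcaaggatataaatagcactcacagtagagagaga
In Nr1h4 the capitals mark AGGTCA, the hexamer that many nuclear receptors bind, on the opposite strand from 214 to 209 bases before the start. In Nr0b2 they mark TTCNNNGAA, the letters of a STAT3 motif, from 91 to 83 bases before the start. STAT3 is the factor that interleukin 6 activates. A part of STAT3 in the levels of Nr0b2, none of whose changes passed, was not tested. These letters are common, with AGGTCA in 14% and TTCNNNGAA in 7.02% of 32851 windows of the same length. Neither window held the FXR motif, which is AGGTCA followed after 1 base by TGACCT, or the NR5A2 motif CAAGGTCA, which contains the hexamer. These were found in 0.00609% and 1.33% of windows. Both strands were searched. A match describes letters and not a bound site. Only exact letters within 250 bases were searched, so a motif not found here or below does not mean that no site exists.

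Markers of other cell types moved with genotype in the same arrays. Of 11 measured bile duct cell markers 5 rose in Mdr2-KO livers and 5 in Mdr2-KO/IL6-KO livers against wild type, beside 1.26% and 4.19% of all genes called, and their mean level was 5.10 to 5.19 on wild-type arrays, 5.76 to 5.89 on Mdr2-KO arrays and 5.71 to 6.05 on Mdr2-KO/IL6-KO arrays. Epcam, an epithelial adhesion molecule of bile ducts, rose by 1.29 and 1.36 on the log2 scale, and Cd24a by 1.62 and 1.49 (adjusted p = 0.00108 and 0.000321 for Epcam, 0.00108 and 0.000772 for Cd24a). Krt19 rose by 1.29 and 1.22, and Cftr by 0.77 and 0.80, in Mdr2-KO and Mdr2-KO/IL6-KO livers respectively. The group means of Cftr were low, at 3.54, 4.31 and 4.33 in wild type, Mdr2-KO and Mdr2-KO/IL6-KO. All lay below 5.09, the lowest array median. Of 11 stellate cell and myofibroblast markers 5 and 6 rose, among them Col1a1 by 1.02 and 1.24, Col1a2 by 0.94 and 1.15 and Col3a1 by 0.86 and 0.97, and array means were 6.79 to 7.08 in wild type, 7.40 to 7.55 for Mdr2-KO and 7.47 to 7.73 for Mdr2-KO/IL6-KO. Of 9 macrophage and leukocyte markers none was called. By group mean 3 of them lay above wild type and 6 below it in each knockout group. Ptprc had a log2 change of -0.64 in Mdr2-KO, and Cd3e of -0.36 in Mdr2-KO/IL6-KO against wild type (adjusted p = 0.228 and 0.0971). Cd14 and Lyz2 were chosen after their values were seen. Their log2 changes were 0.74 and 0.49 in Mdr2-KO against wild type (adjusted p = 0.233 and 0.564). In Mdr2-KO/IL6-KO against wild type they were 0.25 and 0.60 (adjusted p = 0.737 and 0.253). Array means of this list overlapped at 6.91 to 8.01, 7.16 to 7.60 and 7.26 to 7.50. No gene of these marker lists was called between the knockout groups, where the lowest p were those of Prom1 (log2 change 0.38), Lrat (0.14) and Cd14 (-0.49). Of the 12 hepatocyte markers none was called, with median log2 changes of -0.033 and -0.042 in Mdr2-KO and Mdr2-KO/IL6-KO livers against wild type. The part of cell composition in the levels of Nr1h4, Cyp7a1 and Slc27a5 was not tested.

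**Figure D2:**
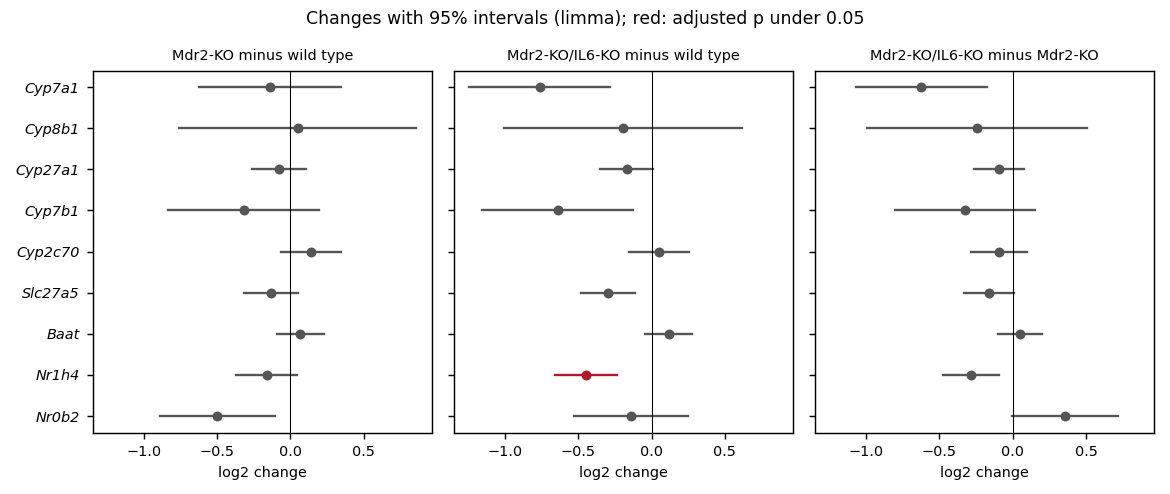
Log2 change (horizontal axis) of each of the 9 genes with its 95% interval from limma in the 3 comparisons; red marks an adjusted p under 0.05. Only Nr1h4 in Mdr2-KO/IL6-KO minus wild type, at -0.45, is red, and the interval of Cyp8b1 is the widest in each panel, from -0.76 to 0.86 in Mdr2-KO minus wild type.

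Cyp7a1, the rate-limiting enzyme of the classical pathway, had its lowest mean in Mdr2-KO/IL6-KO livers. Its level was 9.80, 10.20 and 10.12 on the wild-type arrays, 9.70, 10.26, 9.56 and 10.10 on the Mdr2-KO arrays, and 9.49, 9.75, 8.70 and 9.17 on the Mdr2-KO/IL6-KO arrays. The Mdr2-KO arrays spanned the wild-type range, and all 4 Mdr2-KO/IL6-KO arrays lay below the 3 wild-type arrays. The group means were 10.04 ± 0.211 (SD, n = 3), 9.90 ± 0.330 (SD, n = 4) and 9.28 ± 0.451 (SD, n = 4). Against wild type the level in Mdr2-KO/IL6-KO livers was 1.70-fold lower (log2 change -0.76 ± 0.22 SE, 95% interval -1.24 to -0.28), with an adjusted p of 0.0815 that did not pass. Leaving out Mdr2-KO/IL6-KO replicate 2 gave an adjusted p of 0.0417, and over the 20 alternatives it ranged up to 0.243. Against Mdr2-KO the level was 1.54-fold lower (log2 change -0.62 ± 0.21 SE, unadjusted p = 0.00969, adjusted p = 0.985). Between Mdr2-KO and wild type the change was -0.14 ± 0.22 SE (adjusted p = 0.933). It was -0.26 without wild-type replicate 1 or Mdr2-KO replicate 2, -0.059 without wild-type replicate 2, -0.069 without Mdr2-KO replicate 1 and -0.023 without Mdr2-KO replicate 3.

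Cyp8b1, the sterol hydroxylase that directs synthesis toward cholic acid, varied widely among the arrays within each knockout group. Its level was 9.30, 9.70 and 9.59 on the wild-type arrays, 9.06, 10.20, 8.96 and 10.12 on the Mdr2-KO arrays, and 8.24, 9.60, 9.62 and 9.90 on the Mdr2-KO/IL6-KO arrays. Mdr2-KO replicates 2 and 4 lay above all wild-type arrays and replicates 1 and 3 below them. The SD was 0.206 in wild type, 0.667 over the 4 Mdr2-KO arrays and 0.748 over the 4 Mdr2-KO/IL6-KO arrays, larger than that of 99.5% and 99.9% of all genes in the knockout groups. The log2 change was 0.052 ± 0.38 SE in Mdr2-KO against wild type, -0.19 ± 0.38 SE in Mdr2-KO/IL6-KO against wild type and -0.25 ± 0.35 SE between the knockout groups (adjusted p = 0.987, 0.888 and 0.9995). Its direction in all 3 comparisons turned with the removal of 1 array, so no direction is given: Mdr2-KO against wild type without wild-type replicate 1 (-0.063) or Mdr2-KO replicate 2 (-0.15) or 4 (-0.13), and the other comparisons without Mdr2-KO/IL6-KO replicate 1 (0.17 and 0.12). In Mdr2-KO livers the arrays high in Cyp8b1, replicates 2 and 4, were also those high in Cyp7a1. In Mdr2-KO/IL6-KO livers the lowest Cyp8b1 was in replicate 1 and the lowest Cyp7a1 in replicate 3.

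Cyp7a1 is known to follow the daily clock in liver, so clock genes were read beside both enzymes. Dbp, a transcription factor that follows the clock, was chosen after its values were seen, and read 8.37 to 8.49 on wild-type arrays, 7.19 to 9.41 on Mdr2-KO arrays and 7.74 to 8.999 on Mdr2-KO/IL6-KO arrays. Like Cyp8b1 it was spread more widely in the knockout groups than in wild type, with a range of 0.123 in wild type against 2.22 and 1.26. Within Mdr2-KO, Dbp was highest in replicate 1 and lowest in replicate 2, while replicates 3 and 4 had 8.41 and 8.40 although they differed in Cyp8b1. Arntl, a core clock gene also chosen after its values were seen, had ranges of 0.470, 1.92 and 0.641 in wild-type, Mdr2-KO and Mdr2-KO/IL6-KO livers. Of 14 measured clock genes none was called in any comparison. By lowest p the genes of this list were Per1 against wild type, with log2 changes of 0.37 and 0.40 (adjusted p = 0.518 and 0.286), and Nfil3 between the knockout groups, at -0.31 (adjusted p = 0.9995). The part of collection time in the spread of Cyp7a1 and Cyp8b1 was not tested.

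**Figure D3:**
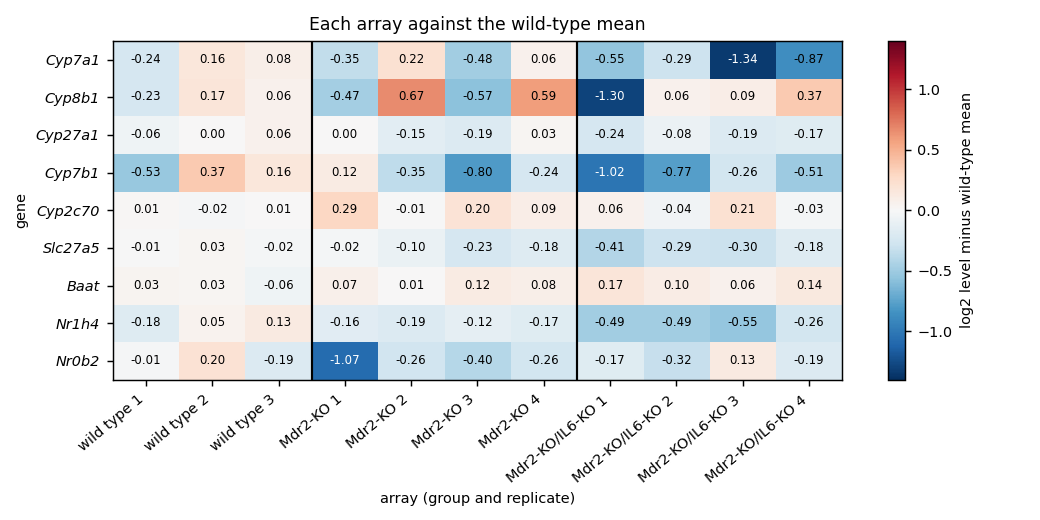
Log2 level of each of the 9 genes (rows) on each of the 11 arrays (columns) minus the wild-type mean of that gene; blue is lower and red higher. Cyp8b1 is above the wild-type mean in Mdr2-KO replicates 2 and 4 and below it in replicates 1 and 3, Nr1h4 is below it on all 8 knockout arrays, and Nr0b2 is lowest in Mdr2-KO replicate 1 at -1.07.

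Cyp27a1, the mitochondrial enzyme that opens the alternative pathway, passed in no comparison. Its level was 10.82, 10.88 and 10.94 on the wild-type arrays, 10.88, 10.73, 10.69 and 10.91 on the Mdr2-KO arrays, and 10.64, 10.80, 10.69 and 10.71 on the Mdr2-KO/IL6-KO arrays. The Mdr2-KO/IL6-KO arrays all lay below wild type but the change did not pass (log2 change -0.17 ± 0.085 SE, adjusted p = 0.374). In Mdr2-KO the 95% interval of the log2 change was -0.26 to 0.11 (adjusted p = 0.879), and between the knockout groups -0.26 to 0.076 (adjusted p = 0.9995). Without Mdr2-KO replicates 2 and 3 the changes in these comparisons were 0.014 and -0.18, against -0.077 and -0.093 with all arrays.

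Cyp7b1, which acts next in the alternative pathway and is known as a male-biased gene in mouse liver, was spread widely in every group. Its level was 9.72, 10.62 and 10.42 on the wild-type arrays, 10.37, 9.90, 9.46 and 10.01 on the Mdr2-KO arrays, and 9.23, 9.48, 9.99 and 9.74 on the Mdr2-KO/IL6-KO arrays. The knockout groups overlapped each other, and they overlapped wild type through wild-type replicate 1, which lay well below the other wild-type arrays. The log2 change was -0.32 ± 0.24 SE in Mdr2-KO (adjusted p = 0.775) and -0.64 ± 0.24 SE in Mdr2-KO/IL6-KO against wild type (unadjusted p = 0.0187, adjusted p = 0.194), and -0.32 ± 0.22 SE between the knockout groups (adjusted p = 0.9995). Without wild-type replicate 1 the changes against wild type were -0.58 (adjusted p = 0.498) and -0.91 (adjusted p = 0.0669). Without Mdr2-KO replicates 2 and 3 the change was -0.061 in Mdr2-KO against wild type (adjusted p = 0.981) and -0.58 between the knockout groups (adjusted p = 0.864). Without Mdr2-KO replicate 3 alone the former was -0.16, and the latter was -0.18 without Mdr2-KO replicate 1 and -0.20 without Mdr2-KO/IL6-KO replicate 1. Without wild-type replicate 2 the changes against wild type were -0.13 and -0.46.

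Cyp2c70, the cytochrome that forms muricholic acids in mice, did not separate the genotypes. Its level was 11.68, 11.65 and 11.67 on the wild-type arrays, 11.96, 11.66, 11.86 and 11.76 on the Mdr2-KO arrays, and 11.73, 11.62, 11.88 and 11.63 on the Mdr2-KO/IL6-KO arrays. The wild-type arrays lay within 0.0351 of one another, and both knockout groups overlapped them. Log2 changes were 0.14 ± 0.094 SE, 0.050 ± 0.094 SE and -0.093 ± 0.087 SE for Mdr2-KO and Mdr2-KO/IL6-KO against wild type and between the knockout groups (adjusted p = 0.723, 0.885 and 0.9995). The 95% intervals lay within -0.28 and 0.35 in the 3 comparisons. Without Mdr2-KO replicates 2 and 3 the change between the knockout groups was -0.14.

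The windows before the start of Cyp8b1 and Cyp2c70 are shown because both hold the same letters at nearly the same distance from the start. The Cyp8b1 window lies at chr9:121916306-121916555 and the Cyp2c70 window at chr19:40187287-40187536, both on the minus strand of GRCm38.p6, and capitals mark the matches.
Cyp8b1: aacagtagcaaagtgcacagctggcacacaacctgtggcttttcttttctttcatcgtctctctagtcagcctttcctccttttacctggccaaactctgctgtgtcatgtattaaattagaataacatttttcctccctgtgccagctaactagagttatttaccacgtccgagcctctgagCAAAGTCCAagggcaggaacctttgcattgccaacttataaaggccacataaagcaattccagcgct
Cyp2c70: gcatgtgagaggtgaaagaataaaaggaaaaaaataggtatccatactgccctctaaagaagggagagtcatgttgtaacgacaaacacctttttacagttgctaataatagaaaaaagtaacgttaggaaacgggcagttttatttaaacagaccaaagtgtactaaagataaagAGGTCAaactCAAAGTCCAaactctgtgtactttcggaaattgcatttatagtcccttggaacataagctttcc
CAAAGTCCA, a core motif of HNF4A, the hepatocyte receptor that sustains many liver genes, lay from 67 to 59 bases before the start in Cyp8b1 and from 64 to 56 bases before it in Cyp2c70. It was found in 126 of 32851 windows, or 0.384%. Cyp2c70 also held AGGTCA from 74 to 69 bases before the start, next to the HNF4A match and not overlapping it. Another HNF4A form, AGGTCA repeated after 1 base, was in neither window and in 0.0335% of all windows. The window of Cyp27a1 held none of the 6 motifs searched. Hnf4a had log2 changes of -0.057 and -0.30 in Mdr2-KO and Mdr2-KO/IL6-KO livers against wild type and -0.24 between the knockout groups (adjusted p = 0.952, 0.219 and 0.9995).

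The enzymes that conjugate bile acids to amino acids differed by small amounts between the groups. Slc27a5, which activates bile acids to their coenzyme A esters, was 10.94, 10.97 and 10.92 on the wild-type arrays, 10.92, 10.85, 10.71 and 10.76 on the Mdr2-KO arrays, and 10.53, 10.65, 10.65 and 10.77 on the Mdr2-KO/IL6-KO arrays. The Mdr2-KO/IL6-KO arrays all lay below wild type, and the Mdr2-KO arrays overlapped both groups. Its level in Mdr2-KO/IL6-KO was 1.23-fold below wild type (log2 change -0.29 ± 0.085 SE, unadjusted p = 0.00422) and did not pass (adjusted p = 0.0785). The adjusted p ranged from 0.0332 to 0.207 over the alternatives and was under the threshold in 3 of 20. The log2 changes were -0.13 ± 0.085 SE in Mdr2-KO against wild type and -0.16 ± 0.079 SE between the knockout groups (adjusted p = 0.701 and 0.9995).

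Baat, which joins the activated bile acid to taurine or glycine, was 10.10, 10.09 and 10.005 on the wild-type arrays, 10.13, 10.08, 10.19 and 10.15 on the Mdr2-KO arrays, and 10.23, 10.17, 10.13 and 10.21 on the Mdr2-KO/IL6-KO arrays. The Mdr2-KO/IL6-KO arrays all lay above wild type, and the Mdr2-KO arrays overlapped both. The log2 change of 0.12 ± 0.075 SE against wild type did not pass (adjusted p = 0.543). The 95% intervals over the 3 comparisons lay within -0.10 and 0.28. Pooled over the groups its SD was 0.0479, at percentile 0.471 of all genes, and that of Cyp8b1 was 0.622, at percentile 99.7. In Mdr2-KO/IL6-KO against wild type 5 of the 9 genes had arrays apart, 4 lower (Cyp7a1, Cyp27a1, Slc27a5 and Nr1h4) and Baat higher. Arrays apart were seen in 16.3% of all genes there, 6.44% lower and 9.85% higher.

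The other enzymes of bile acid synthesis passed in no comparison. Of 13 measured members, which include Hsd3b7, Akr1d1 and Amacr, none was called, and their median log2 changes were -0.070, -0.12 and 0.039. By lowest p they were led by Hsd3b7, which acts after Cyp7a1, at -0.28 in Mdr2-KO against wild type (adjusted p = 0.504), Acox2, a peroxisomal oxidase that shortens the side chain, at 0.16 in Mdr2-KO/IL6-KO against wild type (adjusted p = 0.563), and Ch25h at -0.26 between the knockout groups (adjusted p = 0.9995). Among 14 measured regulators around FXR 1 rose in Mdr2-KO/IL6-KO against wild type, where 4.19% of all genes were called. It was Nr1i2, the xenobiotic receptor PXR, which bile acids also activate. Its level was 8.03, 7.90 and 8.04 on the wild-type arrays, 8.24, 8.27, 8.30 and 8.25 on the Mdr2-KO arrays, and 8.60, 8.46, 8.18 and 8.36 on the Mdr2-KO/IL6-KO arrays, with all knockout arrays above wild type. The 1.33-fold rise in Mdr2-KO/IL6-KO was 0.41 ± 0.098 SE on the log2 scale (adjusted p = 0.0314), and the log2 change was 0.27 ± 0.098 SE in Mdr2-KO (adjusted p = 0.308). Rxra, the partner of FXR, chosen for its role after its values were seen, had log2 changes of -0.26 and -0.33 against wild type (adjusted p = 0.462 and 0.143).

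Of 13 bile acid transporters and other FXR targets 1 fell in Mdr2-KO against wild type, and 1 fell and 1 rose in Mdr2-KO/IL6-KO, beside 1.26% and 4.19% of all genes called. Pltp, the phospholipid transfer protein and a known FXR and LXR target, was 9.45, 9.55 and 9.11 on the wild-type arrays, 7.82, 8.59, 8.08 and 8.38 on the Mdr2-KO arrays, and 7.83, 8.23, 8.12 and 8.34 on the Mdr2-KO/IL6-KO arrays. All 8 knockout arrays lay below wild type, and in Mdr2-KO livers Pltp fell 2.22-fold (-1.15 ± 0.18 SE on the log2 scale, adjusted p = 0.00556). In Mdr2-KO/IL6-KO it fell 2.36-fold (-1.24 ± 0.18 SE, adjusted p = 0.00139). Abcc4, an export pump of the basolateral membrane, rose by 0.43 ± 0.095 SE on the log2 scale in Mdr2-KO/IL6-KO (adjusted p = 0.0217). Abcb11, the bile salt export pump and a direct FXR target, had log2 changes of 0.015 and 0.32 in Mdr2-KO and Mdr2-KO/IL6-KO livers against wild type and 0.31 between the knockout groups (adjusted p = 0.990, 0.211 and 0.9995). Slc51b, a further FXR target chosen after its values were seen, had log2 changes of 0.59 and 1.07 against wild type (adjusted p = 0.539 and 0.0567). Slc51a, on the same list and also chosen after its values were seen, went the other way, at -0.34 and -0.28 (adjusted p = 0.278 and 0.274). The group means of Slc51a were 4.02, 3.68 and 3.75 in wild type, Mdr2-KO and Mdr2-KO/IL6-KO, below 5.09, the lowest array median. That of Slc51b in wild type, 4.72, also lay below it. Whether these 2 genes were expressed above background was not tested. None of the 13 was called between the knockout groups. Of the genes named here as FXR targets only Pltp passed, below wild type, and the changes of Abcb11 and Slc51b did not pass. By group mean 7 of the 13 genes lay above wild type and 6 below it in each knockout group. Slco1a1 and Slc10a1, on the same list, were chosen after their values were seen. Their log2 changes were -1.16 and -0.42 in Mdr2-KO/IL6-KO against wild type (adjusted p = 0.0716 and 0.0730).

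**Figure D4:**
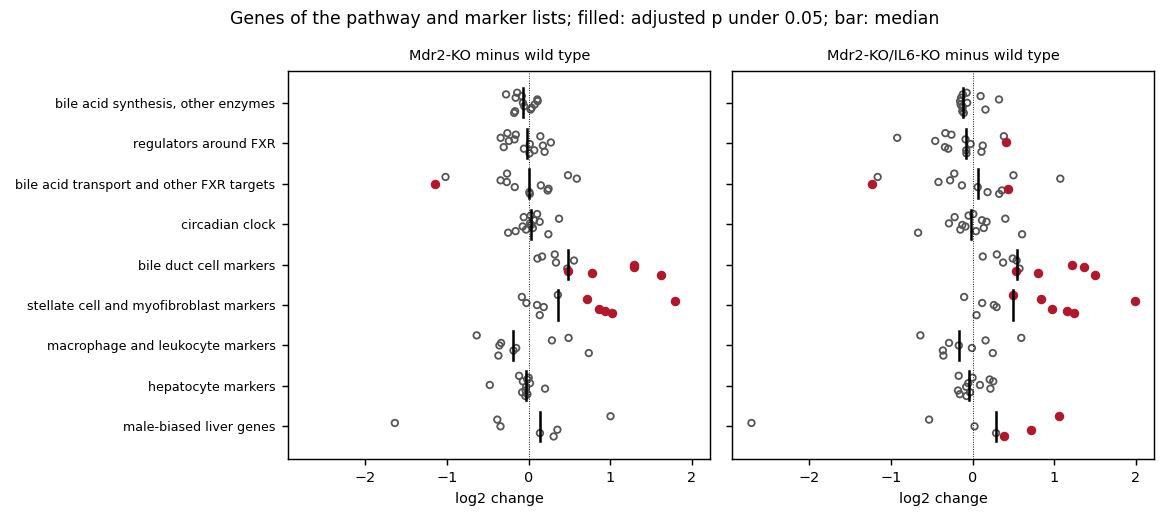
Log2 change (horizontal axis) of each measured gene of the pathway and marker lists (rows) in each knockout group minus wild type; filled red points passed an adjusted p under 0.05 and the black bar is the median of the list. The other bile acid synthesis enzymes cluster near 0, with medians of -0.070 and -0.12, whereas bile duct cell markers have medians of 0.49 and 0.54.

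The genes whose profile was most like that of a member were found for the 3 members with the largest SD over the 11 arrays, by the root mean square distance between log2 profiles centred on their own means. Cyp7b1 was closest to Nudt7, which encodes a peroxisomal coenzyme A hydrolase, at a distance of 0.148, where a flat profile would lie at 0.416. Nudt7 had levels of 10.20, 10.66 and 10.52 on the wild-type arrays, 10.61, 10.01, 9.68 and 9.99 on the Mdr2-KO arrays, and 9.56, 9.90, 10.28 and 9.96 on the Mdr2-KO/IL6-KO arrays, with its lowest wild-type array in replicate 1 as for Cyp7b1. Adgrf1 (0.189) and Capn10 (0.193) came next. Cyp7a1 was closest to Kcnj2, an inward-rectifier potassium channel, at 0.248, followed by Olfr462 (0.276) and Mir195a (0.295), where a flat profile would lie at 0.452. For Cyp8b1, Gm11733 (0.336), Defb5 (0.358) and Enho (0.365) were the closest, against 0.542 for a flat profile. The group means of Kcnj2, Mir195a, Gm11733 and Defb5 all lay below 5.09, the lowest array median, with Defb5 at 2.06 to 2.26. Whether these genes were expressed above background was not tested. Distances were taken over 11 arrays that include the 3 genotypes, so they hold differences between groups as well as within them.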

How the data were processed

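Gene expression was measured on 11 Affymetrix arrays. The authors deposited log2 levels for 35557 probe sets, made with RMA and Partek software, as the submitters' processing notes list them; versions and settings are not given in the sources used here, and signal over background was not used. The values were used as deposited, with no further normalization or filter. Probe sets with 1 gene symbol in the platform annotation (21789) were named through the RefSeq table of GRCm38.p6, and the brightest was taken per gene, giving 19938 genes.

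One model with a mean per group was fitted to all genes with limma 3.58.1 (R 4.3.3; eBayes, two-sided, Benjamini-Hochberg over all genes), and calls needed an adjusted p under 0.05. SEs of changes come from the model. The script was tested on simulated data. The 9 genes, the lists and the tests were chosen with earlier results of these data known. Genes named beside the 9 were, per list and comparison, up to 3 called genes or else the 1 with the lowest p, the 3 nearest profiles, and Abcb4; others are marked in the text. Replicate numbers follow sample order and pair nothing. Alternatives were averaging probe sets per gene, array weights, bright genes only, an unmoderated model, quantile scaling, centring on the array median, eBayes with a trend and robust prior, a fit of just the compared groups, and leaving out each array or Mdr2-KO replicates 2 and 3 together. Of 113 list entries 104 were measured; the rest were not analysed here.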

Additional observations from a re-analysis of the deposited data

Results flagged for a closer look

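Among 74 groups of 4 arrays, for the 37 genes named by rule, 1 value stood apart from the rest of its group by Dixon's test, for which chance flags about 1 in 20. Lrat, the retinol esterifying enzyme of stellate cells, read 6.73 in Mdr2-KO replicate 2, where the nearest of the other 3 arrays read 7.02 and the farthest 7.06. None of the 9 bile acid genes passed this limit, but the ratio of gap to range for Nr0b2 in Mdr2-KO, lowest in replicate 1, was 0.82881, just under the critical value. The ratio for Cyp8b1 in Mdr2-KO/IL6-KO, also lowest in replicate 1, was 0.816, and that for Nr1h4 in the same group, highest in replicate 4, was 0.802.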

How the results depend on the processing

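Of 27 changes of the 9 genes over the 3 comparisons, 22 kept their direction and 24 their side of the threshold under all 20 alternatives. Cyp8b1 turned when 1 array was left out, with ranges of -0.15 to 0.26 in Mdr2-KO against wild type, -0.38 to 0.17 in Mdr2-KO/IL6-KO against wild type and -0.45 to 0.12 between the knockout groups. Cyp2c70 in Mdr2-KO/IL6-KO against wild type ranged from -0.0046 to 0.081. Leaving out Mdr2-KO replicates 2 and 3 together, chosen after seeing the data, gave 0.014 for Cyp27a1 in Mdr2-KO against wild type and 2 called genes between the knockout groups. The counts of called genes, 252, 836 and 1, were 43, 496 and 0 in the unmoderated limma model (942 genes at an unadjusted p under 0.05 in the last) and 410, 1341 and 6 with array weights. With only the groups compared the first was 138. The last was 4 among genes brighter than the median gene, 2 with median centring and 2 with eBayes trend and robust. Leaving out 1 array gave 148 to 323, 464 to 989 and 1 to 5. Without wild-type replicate 1, 2 or 3 the first count was 149, 148 and 163 and the next was 464, 533 and 521, and that next count was 535 and 551 without Mdr2-KO/IL6-KO replicate 1 or 3. The last rose above 1 without wild-type replicate 1, Mdr2-KO replicates 2 or 3 or Mdr2-KO/IL6-KO replicates 3 or 4. For Cyp7a1 in Mdr2-KO/IL6-KO against wild type, array weights gave an adjusted p of 0.0487. The cause was not tested. No paired analysis was possible because replicate numbers follow sample order and the labels pair no samples.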

Other observations

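Cyp7b1 is one of the genes that male mouse liver expresses more than female liver, and 7 others on a list of such genes were measured. None was called in Mdr2-KO against wild type or between the knockout groups, beside 1.26% and 0.00502% of all genes called. In Mdr2-KO against wild type the lowest p was that of Selenbp2, with a log2 change of 1.003 (adjusted p = 0.0504). Cyp2d9 and Cyp4a12b had log2 changes of 0.31 and 0.35 there (adjusted p = 0.216 and 0.540). For Selenbp2 and Cyp2d9 all Mdr2-KO arrays lay above wild type. Between the knockout groups the lowest p was that of Cyp4a12b, at 0.36 (adjusted p = 0.9995). In Mdr2-KO/IL6-KO against wild type 3 rose, beside 4.19% of all genes called in either direction. Selenbp2 rose 2.09-fold (log2 change 1.06, adjusted p = 0.0177), Cyp4a12b 1.64-fold (0.71, adjusted p = 0.0346) and Cyp2d9 1.31-fold (0.38, adjusted p = 0.0441). Hsd3b5, named after its values were seen, had a log2 change of -2.71 ± 0.78 SE in the same comparison and did not pass (adjusted p = 0.0762). Nudt7, the nearest profile to Cyp7b1, is also on this list and had a log2 change of -0.53 there (adjusted p = 0.201). By group mean 5 of the 7 genes lay above wild type in that comparison. The 2 below it, Hsd3b5 and Nudt7, did not pass.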
